A study of Mus musculus with 14 samples.

Results

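The genes described here are 7 effectors of cell killing: Gzmb, Gzma and Gzmk, which encode granzymes, Prf1, which encodes perforin, Nkg7, Fasl and Ctsw. They were taken by name from a list of cytotoxic effector genes, and each was found in the table of 25124 genes. All 7 passed the low-count filter that left 13434 genes for testing. The filter keeps a gene that has enough counts in the smallest group, so Gzma, Gzmk and Prf1 passed through some groups while lying at 0 in others. Cd8a and Cd8b1, which encode the chains of the CD8 co-receptor, were set beside them in the same libraries.

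RNA came from 3 T cell populations of mouse tumours, sorted on CD4, CD25, a red fluorescent reporter tied to Foxp3, and PD-1. The populations were PD-1- Tregs (Foxp3 reporter-positive regulatory T cells without surface PD-1), PD-1+ Tregs and CD4 T cells other than Tregs. Each was taken from mice given an antibody against PD-L1, the ligand of PD-1 (clone MIH5), and from mice given an isotype antibody (clone 2A3). PD-1- Tregs had 2 anti-PD-L1 and 2 isotype libraries, PD-1+ Tregs had 3 and 2, and CD4 T cells had 3 and 2, which makes 14 libraries in 6 groups. All mice were labelled as female C57BL/6 animals of 8 to 12 weeks with the genotype GATIR Foxp3Cre-rfp Gata3Cre-yfp. All carried tumours of AE17-OVA, a mesothelioma line, under the skin. Each antibody was given as 200 µg into the peritoneum on day 10, with tumour collection on day 13. The protocol text leaves unclear from which event day 13 is counted. The sources used here do not tell whether a library came from 1 animal or a pool, so the p-values cover the spread among libraries, which may be technical.

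Killer lymphocytes store granzymes and perforin in lysosome-like granules and release them at the contact with a target cell. Perforin opens the target's membrane to the granzymes, which are serine proteases that cut substrates in the target and start its death. Fas ligand, encoded by Fasl, acts by another route, since it binds the death receptor Fas on the target. Nkg7 is a membrane protein of the granules that takes part in their release, and Ctsw encodes cathepsin W, a cysteine protease of T and NK cells. In mouse tumours, regulatory T cells can make granzyme B, which has been studied as a means of suppression. Granzyme expression in CD4 T cells is regarded as a trait of a cytotoxic subset.

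The libraries held 10638848 to 15030804 counts. Below, CPM means counts scaled to a fixed library total (counts-per-million units) after TMM. One count was worth 0.0659 to 0.0974 CPM, and 3 counts, the floor used where a gene is at 0, were worth 0.198 to 0.292 CPM. The number of genes with a count differed between populations: it was 8027 to 8801 for PD-1- Tregs, 9662 to 11312 for PD-1+ Tregs and 12119 to 14535 for CD4 T cells. In bulk libraries fewer cells of a type and less RNA per cell cannot be told apart. The sort markers followed the labels in part. Foxp3 was at 114 to 198 CPM in PD-1- Tregs, at 15.9 to 156 CPM in PD-1+ Tregs and at 16.3 to 55.0 CPM in CD4 T cells, so some PD-1+ Treg libraries lay within the CD4 T cell range. Pdcd1, the gene of PD-1, was at 21.7 to 46.5 CPM in PD-1- Tregs, at 85.6 to 246 CPM in PD-1+ Tregs and at 45.4 to 275 CPM in CD4 T cells. Although every mouse was labelled female, 3 libraries held 2767 to 2966 counts on Y-linked genes, where the others held at most 1. These were replicate 2 of the anti-PD-L1 PD-1- Tregs and replicate 3 of the anti-PD-L1 PD-1+ Tregs and of the anti-PD-L1 CD4 T cells. They are also the only libraries with the bracketed number 3 in their sample names. For most comparisons, the calls of members are given with and without them. The exceptions are PD-1+ Tregs against CD4 T cells and treatment effects compared with those in CD4 T cells. Calls of the pathway lists are given by the number that held.

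By the RefSeq table of GRCm38.p6, the build called mm10 in the submitters' processing notes, Gzmb spans chr14:56258836-56262334. Gzma and Gzmk lie near each other, at chr13:113093824-113100981 and chr13:113171630-113180965. Prf1 spans chr10:61297751-61304684, Nkg7 chr7:43437138-43438246, Fasl chr1:161780691-161788495 and Ctsw chr19:5465043-5468628. In the GENCODE annotation of the same build, exons of Ctsw overlap exons of Fibp on the opposite strand, and no source used here says whether counting used the strand. The counts of Ctsw are therefore uncertain. Fibp itself was at 0 to 49.9 CPM in PD-1- Tregs, at 29.4 to 65.2 CPM in PD-1+ Tregs and at 35.9 to 46.6 CPM in CD4 T cells. Esm1 overlaps the span of Gzmk on the opposite strand but none of its exons.

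The promoters below belong to the members on which the results turn: Gzmb and Nkg7, which rose with anti-PD-L1 in PD-1- Tregs, Prf1, which was at 0 in every anti-PD-L1 library of Tregs, and Gzmk, which had counts in CD4 T cells alone. They are RefSeq sequences of GRCm38.p6, 250 bases before to 50 after the gene's start, read along the gene's own strand. The start used there for Prf1 lies inside the gene's span. Capitals mark matches on either strand to GTGTGA (the core of T-box sites, bound by factors such as T-bet), to TGTGGT (a RUNX site) or to TGANTCA (an AP-1 site). TGACGTCA (a cyclic AMP response element) was searched as well.
Gzmb, chr14:56262285-56262584, minus strand: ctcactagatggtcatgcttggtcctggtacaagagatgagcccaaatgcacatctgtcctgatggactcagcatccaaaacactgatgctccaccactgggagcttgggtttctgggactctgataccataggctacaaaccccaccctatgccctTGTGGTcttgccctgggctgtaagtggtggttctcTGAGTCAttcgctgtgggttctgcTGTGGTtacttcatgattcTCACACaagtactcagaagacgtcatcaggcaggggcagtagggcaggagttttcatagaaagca
Nkg7, chr7:43436888-43437187, plus strand: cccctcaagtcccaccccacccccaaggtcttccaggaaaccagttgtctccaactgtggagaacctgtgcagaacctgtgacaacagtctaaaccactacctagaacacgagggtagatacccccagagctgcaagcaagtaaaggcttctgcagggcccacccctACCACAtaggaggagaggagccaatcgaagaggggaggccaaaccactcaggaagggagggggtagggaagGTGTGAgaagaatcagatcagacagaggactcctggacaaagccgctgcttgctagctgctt
Prf1, chr10:61297586-61297885, plus strand: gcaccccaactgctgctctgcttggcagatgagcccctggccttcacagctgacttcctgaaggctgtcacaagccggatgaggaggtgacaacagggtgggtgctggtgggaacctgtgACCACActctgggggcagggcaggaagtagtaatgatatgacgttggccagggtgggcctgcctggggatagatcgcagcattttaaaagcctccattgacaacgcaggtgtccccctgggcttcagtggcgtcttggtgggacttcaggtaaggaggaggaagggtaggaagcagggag
Gzmk, chr13:113180916-113181215, minus strand: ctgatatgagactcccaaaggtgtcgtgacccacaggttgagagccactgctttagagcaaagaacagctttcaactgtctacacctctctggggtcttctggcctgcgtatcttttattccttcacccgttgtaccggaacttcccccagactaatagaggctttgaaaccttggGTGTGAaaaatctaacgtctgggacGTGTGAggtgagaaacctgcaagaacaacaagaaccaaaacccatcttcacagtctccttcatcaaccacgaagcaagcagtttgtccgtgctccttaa
The Gzmb promoter held 1 T-box core, 2 RUNX matches and 1 AP-1 match, and the Nkg7 promoter held 1 T-box core and 1 RUNX match. Prf1 held 1 RUNX match and Gzmk held 2 T-box cores. Of the other promoters with a sequence in the table, that of Gzma held 1 RUNX match and that of Fasl held none of these letters. A sequence was found for 6 of the 7 members. Among all 32851 promoters in the table, 14.5% held the T-box core, 16.8% the RUNX letters, 7.81% the AP-1 letters and 1.79% TGACGTCA. A match describes the letters in this window and is not a bound site.

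Per length, on the scale of the deposited RPKM (reads scaled for gene length and for library depth), Nkg7 was the highest of the 7 genes in 11 of 14 libraries. Ctsw was the highest in both isotype libraries of PD-1- Tregs, at 81.6 and 31.2 RPKM, and Gzmb in 1 anti-PD-L1 library of PD-1- Tregs, at 159 RPKM. In CD4 T cells of anti-PD-L1 mice Nkg7 averaged 870 RPKM and ranked 52nd of all 25124 genes by mean level, and in CD4 T cells of isotype mice it averaged 177 RPKM and ranked 446th. Gzmb averaged 145 RPKM in PD-1- Tregs of anti-PD-L1 mice, which is rank 609. Gzma and Prf1 reached at most 14.5 RPKM and 15.1 RPKM in any library. The plot of levels by library shows all values.

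**Figure D1:**
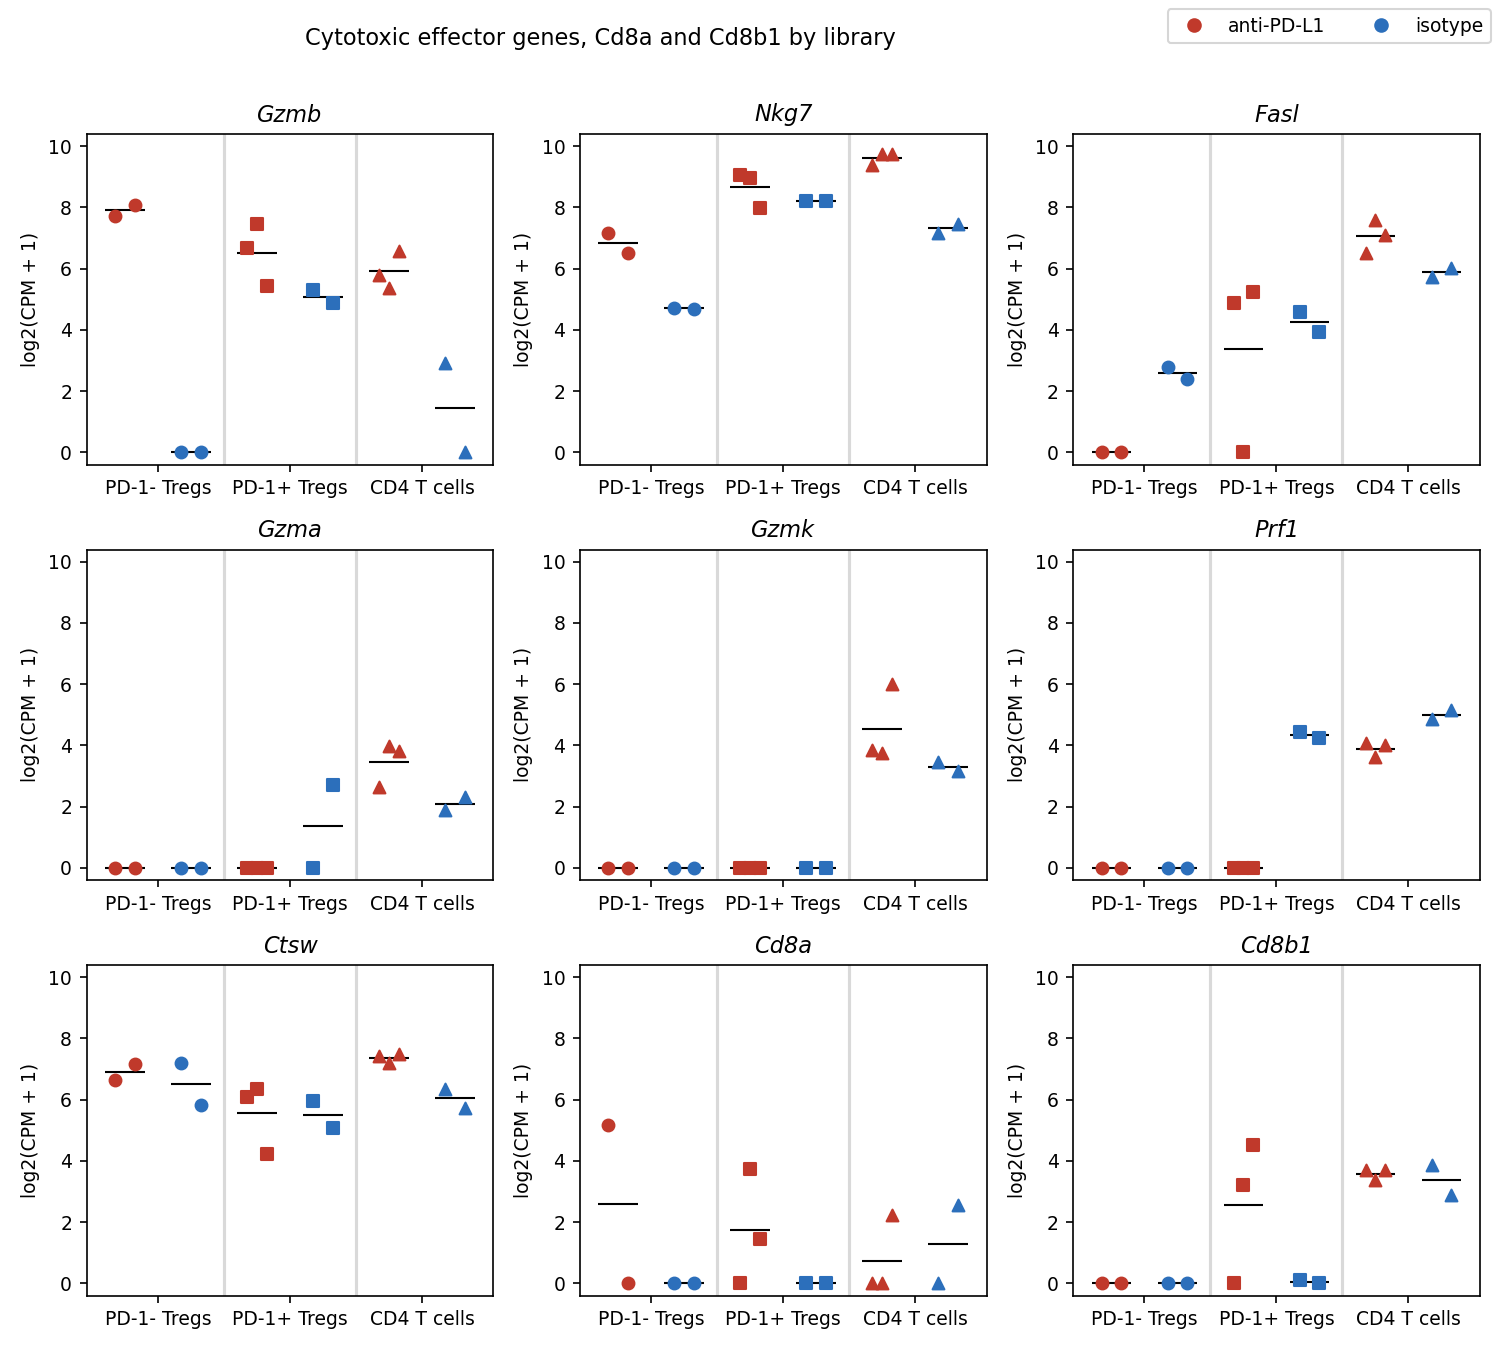
Level of the 7 effector genes, Cd8a and Cd8b1 in each of 14 libraries, as log2(CPM + 1), by population, with anti-PD-L1 libraries in red left of isotype libraries in blue; each point is 1 library and each black line the group mean of the log values. Gzmb and Nkg7 lie higher in both anti-PD-L1 libraries of PD-1- Tregs than in both isotype libraries, while Gzma, Gzmk and Prf1 lie at 0 in all 4 libraries of PD-1- Tregs.

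Anti-PD-L1 treatment was first compared within PD-1- Tregs. Gzmb and Nkg7 rose, and Gzma, Gzmk and Prf1 had no count in any of the 4 libraries. Gzmb was at 209 and 272 CPM in anti-PD-L1 libraries, against 0 counts in both isotype libraries. Both treated libraries were thus far above the detection floor, and the level was at least 873-fold higher against a floor of 3 counts per isotype library (adjusted p = 0.0149, edgeR's quasi-likelihood test with Benjamini-Hochberg adjustment over 13434 genes). Counts in both treated libraries with 0 in both isotype libraries occurred for 2.11% of genes tested. Nkg7 was at 144 and 90.1 CPM in anti-PD-L1 libraries, against 25.0 and 25.0 CPM in isotype libraries. The groups did not overlap, and the log2 fold change was 2.22 ± 0.36 (SE, adjusted p = 0.00710), a mean of 117 ± 37.9 CPM in anti-PD-L1 libraries and 25.0 ± 0.049 CPM in isotype libraries (SD, n = 2 each).

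Without the 3 libraries with Y-linked counts, Nkg7 had a log2 fold change of 2.49 in PD-1- Tregs (adjusted p = 0.00300) and the adjusted p of Gzmb was 0.0377. The values of Fasl lay the other way. It had 0 counts in both anti-PD-L1 libraries, against 5.87 and 4.25 CPM in isotype libraries. That is at least 21.3-fold lower against the floor, but the adjusted p was 0.108, and 2.66% of genes tested had counts in both isotype libraries and none in the treated ones. The call of Fasl depended on the tool and on 1 library: the adjusted p was 0.000913 by DESeq2, which called 23.6% of all genes here, 0.158 by limma-voom, 0.0106 by edgeR without replicate 2 of the anti-PD-L1 PD-1+ Tregs, and 0.269 without the libraries with Y-linked counts. Ctsw overlapped between the groups, with 99.4 and 142 CPM in anti-PD-L1 libraries and 145 and 55.3 CPM in isotype libraries (log2 fold change 0.27 ± 0.70, adjusted p = 1.0).

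In all, 2 of 7 members passed the threshold in PD-1- Tregs, where 2.66% of all genes tested did. Every treated library lay above every isotype library for 2 members, as for 12.5% of genes tested, and below for 1 member, as for 14% of genes tested. The calls of Gzmb and Nkg7 leaned on the spread estimated from all 14 libraries. When the 4 libraries of PD-1- Tregs were fitted alone the adjusted p was 0.612 for Gzmb and 0.822 for Nkg7, with log2 fold changes of the same sign. By limma-voom it was 0.000183 for Gzmb and 0.482 for Nkg7.

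In PD-1+ Tregs no member passed the threshold, where 0.0149% of all genes did. Gzmb was at 100.5, 174 and 42.5 CPM in anti-PD-L1 libraries, against 38.6 and 28.3 CPM in isotype libraries. The treated libraries were all above the isotype ones, by 1.66 ± 1.33 on the log2 scale (adjusted p = 0.935), and replicate 3 came close to them. Nkg7 was at 535, 502 and 254 CPM in anti-PD-L1 libraries, against 298 and 295 CPM in isotype libraries. Its groups overlapped through replicate 3, 1 of the libraries with Y-linked counts (log2 fold change 0.54 ± 0.32, adjusted p = 0.699). No member passed without the libraries with Y-linked counts either, and the adjusted p was 0.842 for Gzmb, 0.652 for Nkg7 (log2 fold change 0.77) and 0.619 for Prf1.

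The perforin gene did not pass by edgeR in PD-1+ Tregs, and its call depended on the tool. Prf1 had 0 counts in all 3 anti-PD-L1 libraries, against 242 and 227 counts, or 20.5 and 17.9 CPM, in isotype libraries. The mean was at least 73.5-fold lower against a floor of 3 counts per library. Its adjusted p by edgeR was 0.495, at rank 29 of all genes by p, while DESeq2 gave an adjusted p of 7.93e-09 and limma-voom one of 0.00149. A pattern of 0 in all treated libraries and counts in both isotype libraries was found for 1.8% of genes tested. Gzma had 0 counts in the 3 anti-PD-L1 libraries, against 0 and 5.53 CPM in isotype libraries, and Gzmk had none in any of the 5. Fasl was at 28.7, 0 and 36.8 CPM in anti-PD-L1 libraries, against 22.8 and 14.4 CPM in isotype libraries. Ctsw was at 67.6, 81.1 and 17.6 CPM in anti-PD-L1 libraries, against 60.9 and 32.4 CPM in isotype libraries. Both genes overlapped between treatments. By edgeR 2 members, Gzma and Prf1, had an unadjusted p under 0.05 in PD-1+ Tregs, and DESeq2 and limma-voom each called 1 member, Prf1. Of all genes tested, 8.06% had an unadjusted p under 0.05, and 4.97% were called by DESeq2 and 1.11% by limma-voom. Groups without overlap were seen for 1 member above, as for 7.69% of genes tested, and 1 below, as for 11.5%.

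In CD4 T cells 6 of 7 members were higher in every anti-PD-L1 library than in every isotype library, and Prf1 was lower, but no member passed the threshold. Of all genes, 0.00744% did so in this comparison. The share of all genes tested with every treated library above was 12.5%, and with every treated library below 15.5%. Nkg7 was at 674, 855 and 864 CPM in anti-PD-L1 libraries, against 144 and 176 CPM in isotype libraries. That is a log2 fold change of 2.31 ± 0.34 with an adjusted p of 0.0979, rank 2 by p among all genes in this comparison. Without the libraries with Y-linked counts the adjusted p was 0.0367, and it was 0.0135 when replicate 3 of the anti-PD-L1 PD-1+ Tregs alone was left out of the fit. Gzmb was at 54.0, 40.7 and 93.8 CPM in anti-PD-L1 libraries, against 6.51 and 0 CPM in isotype libraries. Its log2 fold change was 4.27 ± 1.53 (adjusted p = 1.0), and it rested on 1 isotype library with counts.

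Gzmk and Gzma, the other granzyme genes of the list, had counts in all 5 CD4 T cell libraries. Gzmk was at 13.5, 12.6 and 63.9 CPM in anti-PD-L1 libraries of CD4 T cells, against 10.1 and 7.89 CPM in isotype libraries, and Gzma was at 5.21, 14.6 and 13.0 CPM in anti-PD-L1 libraries, against 2.71 and 3.98 CPM in isotype libraries. For both the adjusted p was 1.0, and the treated and isotype libraries did not overlap. Fasl was at 90.8, 193 and 135 CPM in anti-PD-L1 libraries of CD4 T cells, against 52.6 and 64.6 CPM in isotype libraries (log2 fold change 1.25 ± 1.63). Ctsw was at 169, 146 and 181 CPM in anti-PD-L1 libraries, against 81.5 and 51.6 CPM in isotype libraries (log2 fold change 1.31 ± 0.67). Prf1 was at 15.8, 11.2 and 15.1 CPM in anti-PD-L1 libraries, against 27.9 and 34.7 CPM in isotype libraries, a log2 fold change of -1.16 ± 1.58. These 3 had an adjusted p of 1.0 as well. Of the 7 members, 2 (Gzmb and Nkg7) had an unadjusted p under 0.05 by edgeR in CD4 T cells. DESeq2 called 1 member here and limma-voom called 0. Of all genes 1.15% had such an unadjusted p, and DESeq2 called 0.425% and limma-voom 0%. The 6 members other than Nkg7 had an adjusted p of 1.0 without the libraries with Y-linked counts as well.

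**Figure D2:**
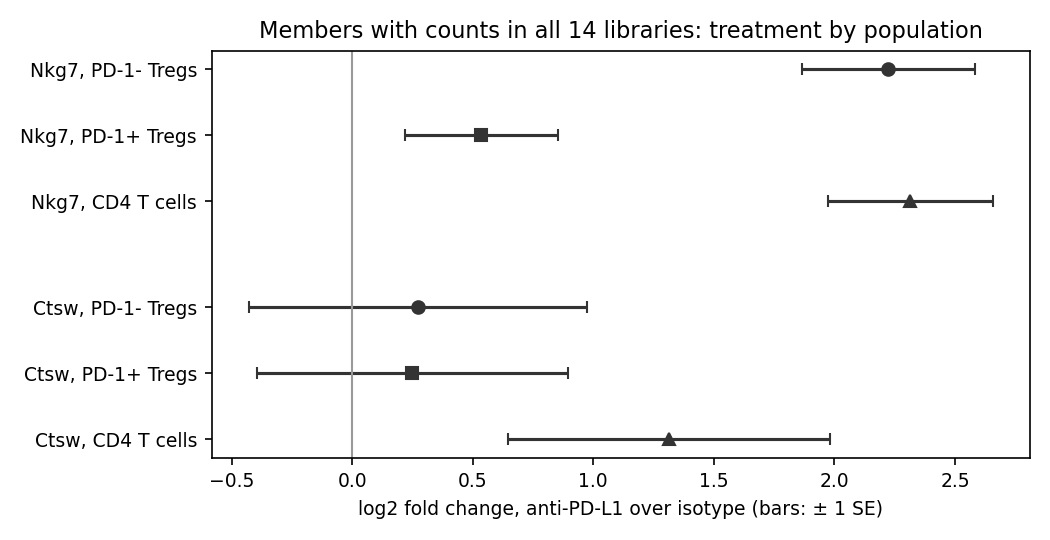
Log2 fold change of anti-PD-L1 over isotype libraries for Nkg7 and Ctsw, the members with counts in all 14 libraries, in each population; points are edgeR estimates and bars ± 1 SE. Nkg7 lies at 2.22 for PD-1- Tregs, 0.54 for PD-1+ Tregs and 2.31 for CD4 T cells, while the bars of Ctsw cross 0 in both Treg populations.

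Averaged over the 3 populations, Nkg7 rose with anti-PD-L1 by 1.69 ± 0.20 on the log2 scale (adjusted p = 0.00179) and Gzmb rose with an adjusted p of 0.0132. Without the libraries with Y-linked counts these adjusted p-values were 0.00189 for Nkg7 and 0.0379 for Gzmb. Thus 2 of 7 members passed, against 1.23% of all genes tested. The average of Gzmb includes the PD-1- Tregs, whose isotype libraries were at 0 and whose fitted change is not a bound. Gzmb passed in neither PD-1+ Tregs nor CD4 T cells alone. The call of Gzmb was lost without replicate 1 (adjusted p = 0.0922) or replicate 2 (0.0819) of the isotype PD-1+ Tregs. Gzma, Gzmk and Prf1 did not pass, and their averaged estimates are not used because at least 1 population was at 0 in both treatments.

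The difference between treatment effects was tested as well. For Gzmb the effect in PD-1- Tregs was larger than in PD-1+ Tregs (adjusted p = 0.0444), the 1 member past the threshold where 1.46% of all genes passed. The values behind it are 209 and 272 CPM in anti-PD-L1 libraries against 0 counts in isotype libraries of PD-1- Tregs, and 100.5, 174 and 42.5 CPM in anti-PD-L1 libraries against 38.6 and 28.3 CPM in isotype libraries of PD-1+ Tregs. The call did not hold without the libraries with Y-linked counts (adjusted p = 0.104), and it was lost when any of 10 of the 14 libraries was left out, all but the anti-PD-L1 PD-1- Tregs and the isotype CD4 T cells (0.0647 to 0.111). For Nkg7 the effect in PD-1- Tregs exceeded that in PD-1+ Tregs by 1.69 ± 0.46 on the log2 scale (adjusted p = 0.101). It passed without the libraries with Y-linked counts (1.72, adjusted p = 0.0379), without replicate 2 of the anti-PD-L1 PD-1- Tregs alone (0.0453) and by DESeq2 (0.00638), which called 18.2% of all genes. Its effect in PD-1+ Tregs differed from that in CD4 T cells by -1.78 ± 0.44, at rank 6 by p but with an adjusted p of 1.00, and 0% of genes passed there. No member passed in the difference between PD-1- Tregs and CD4 T cells, where 0.975% of all genes did. By edgeR, 2 and 3 members had an unadjusted p under 0.05 in the comparisons of PD-1- Tregs and of PD-1+ Tregs with CD4 T cells, and DESeq2 called 2 members in each and limma-voom 0. Of all genes, 14.3% had such a p in the comparison of PD-1- Tregs with CD4 T cells, where DESeq2 called 16.1% and limma-voom 2.18%. In that of PD-1+ Tregs with CD4 T cells the shares were 3.5%, 2.3% and 0%.

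The populations were then compared with both treatments weighted equally. Nkg7 was higher in PD-1+ Tregs than in PD-1- Tregs, with 254 to 535 CPM in 5 libraries of PD-1+ Tregs and 25.0 to 144 CPM in 4 libraries of PD-1- Tregs. The groups did not overlap, and the log2 fold change was 2.72 ± 0.25 (adjusted p = 0.000362), with an adjusted p of 0.00189 without the libraries with Y-linked counts. Within 1 treatment the difference kept its sign but not its call, at 1.89 among anti-PD-L1 libraries (adjusted p = 0.0608) and 3.58 among isotype libraries (adjusted p = 0.115). Nkg7 was the 1 member past the threshold here, where 4.28% of all genes passed, and the 1 member without overlap, as for 3.24% of genes tested. Gzmb was at 28.3 to 174 CPM in PD-1+ Tregs and at 0 to 272 CPM in PD-1- Tregs (adjusted p = 0.0567). Its sign differed between treatments: the log2 fold change was -1.18 among anti-PD-L1 libraries (adjusted p = 0.320), while among isotype libraries PD-1+ Tregs had 38.6 and 28.3 CPM and PD-1- Tregs had 0. Fasl was at 0 to 36.8 CPM in PD-1+ Tregs and at 0 to 5.87 CPM in PD-1- Tregs (adjusted p = 0.0514). Ctsw was at 17.6 to 81.1 CPM in PD-1+ Tregs and at 55.3 to 145 CPM in PD-1- Tregs (log2 fold change -1.11 ± 0.48, adjusted p = 0.189).

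Against CD4 T cells, Nkg7, Fasl, Prf1 and Gzmk were lower in PD-1- Tregs past the threshold, 4 of 7 members where 3.6% of all genes passed. For Gzmk this direction was fixed in advance, since it had counts in CD4 T cells alone and passed the filter through them. Its call is no support for a difference, and the same holds where Gzmk is counted among members below. Nkg7 differed by -2.72 ± 0.25 on the log2 scale (adjusted p = 0.000360), with 25.0 to 144 CPM in PD-1- Tregs and 144 to 864 CPM in CD4 T cells. Its ranges do not overlap, since the highest PD-1- Treg library lay just under the lowest CD4 T cell library. Prf1 had 0 counts in all PD-1- Treg libraries and 11.2 to 34.7 CPM in CD4 T cells, at least 81.7-fold lower against the floor (adjusted p = 0.0215). Gzmk had 0 counts in PD-1- Tregs and 7.89 to 63.9 CPM in CD4 T cells, at least 84.3-fold lower (adjusted p = 0.0484). Fasl was at 0 to 5.87 CPM in PD-1- Tregs and at 52.6 to 193 CPM in CD4 T cells (adjusted p = 0.0248). Gzma also had no count in PD-1- Tregs, against 2.71 to 14.6 CPM in CD4 T cells, with an adjusted p of 0.0784. Ctsw differed by 0.07 ± 0.47 on the log2 scale (adjusted p = 0.980).

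A count of 0 in all 4 PD-1- Treg libraries beside counts in all 5 CD4 T cell libraries was found for 6.06% of genes tested, and ranges that lay wholly below for 13%, against 5 of 7 members. The number of genes detected moves with these zeros, at 8027 to 8801 for PD-1- Tregs and 12119 to 14535 for CD4 T cells, and its part in them was not tested. Without the libraries with Y-linked counts Nkg7 kept its call (adjusted p = 0.00209), whereas the adjusted p was 0.110 for Fasl, 0.145 for Gzmk and 0.0616 for Prf1. Leaving out any 1 of the 5 CD4 T cell libraries also ended the calls of Fasl, Gzmk and Prf1. The adjusted p was 0.0538 to 0.0892 for Prf1 over these 5. For Gzmk the call was lost without any of the 9 libraries compared (0.0593 to 0.134), and for Fasl without 8 of the 9, all but replicate 1 of the anti-PD-L1 PD-1- Tregs (0.0538 to 0.0690). Without the libraries with Cd8a counts the adjusted p was 0.238 for Gzmk and 0.131 for Prf1.

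PD-1+ Tregs and CD4 T cells differed in no member past the threshold, where 0.35% of all genes passed. By edgeR 5 members had an unadjusted p under 0.05, as did 12.4% of all genes. DESeq2 called 2 members and 6.21% of all genes, and limma-voom called 3 members and 4% of all genes. Nkg7 was at 254 to 535 CPM in PD-1+ Tregs and at 144 to 864 CPM in CD4 T cells (log2 fold change -0.00 ± 0.22). The values by treatment had opposite signs, -0.91 among anti-PD-L1 libraries and 0.88 among isotype libraries, with an adjusted p of 0.493 and 0.412. Gzmk had 0 counts in all 5 PD-1+ Treg libraries, at least 84.6-fold lower than in CD4 T cells (adjusted p = 0.152), and 1.02% of genes tested had this pattern. Gzmk and Fasl lay below CD4 T cells in every library, as 4.72% of genes tested did. Gzmk, with counts in CD4 T cells alone, could lie nowhere else.

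Cd8a and Cd8b1 were set beside Gzmb library by library. In PD-1- Tregs of anti-PD-L1 mice, Cd8a was at 35.2 and 0 CPM and Cd8b1 had no count, and in those of isotype mice both had none. The library with 0 counts of Cd8a, replicate 2, was the one with 272 CPM of Gzmb, the highest of all 14, and it had 0 counts for all 13 markers chosen for CD8 T and NK cells. Its Y-linked counts are noted above. It also had the fewest genes with a count of all 14 libraries, 8027, so these zeros do not show that such cells were absent. The summed level of the 13 markers was 76.7 and 0 CPM in anti-PD-L1 PD-1- Tregs, against 20.8 and 60.7 CPM in isotype PD-1- Tregs, where Gzmb was at 0. The 5 libraries with Cd8a counts include replicate 1 of the anti-PD-L1 PD-1- Tregs. A fit without these 5 thus leaves 1 treated library of PD-1- Tregs, replicate 2. Gzmb and Nkg7 kept the sign of their change in it. That fit still holds libraries with Cd8b1 counts. With 1 treated library it cannot show whether the calls depend on CD8 T cells.

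In PD-1+ Tregs the markers summed to 102 to 264 CPM in anti-PD-L1 libraries, against 92.2 and 115 CPM in isotype libraries. Cd8a was at 0, 12.2 and 1.75 CPM and Cd8b1 at 0, 8.31 and 21.7 CPM in the anti-PD-L1 libraries, against 0 counts of Cd8a and at most 1 count of Cd8b1 in isotype libraries. Cd8b1 had counts in all 5 CD4 T cell libraries, at 11.9, 9.32 and 12.1 CPM in anti-PD-L1 libraries and at 13.5 and 6.37 CPM in isotype libraries. In CD4 T cells the 13 markers summed to 127 to 171 CPM in anti-PD-L1 libraries, against 77.6 and 80.2 CPM in isotype libraries, and 10 or 11 of 13 had counts. This sum was higher in the treated CD4 T cells, as Nkg7 was. Other marker sums lay lower in treated libraries without overlap. For B cells the sum was at most 83.0 CPM in anti-PD-L1 CD4 T cells, against 174 and 200.1 CPM in isotype ones, and 22.9 to 82.2 CPM in anti-PD-L1 PD-1+ Tregs, against 189 and 364 CPM in isotype ones. For mesothelial tumour and stroma it was 130 to 533 CPM in anti-PD-L1 CD4 T cells, against 674 and 982 CPM in isotype ones. For gamma-delta T cells it was 0 to 2.93 CPM in anti-PD-L1 CD4 T cells, against 4.75 and 11.7 CPM in isotype ones, and 0 in anti-PD-L1 PD-1+ Tregs, against 3.23 and 16.4 CPM in isotype ones. In PD-1- Tregs, where Gzmb and Nkg7 rose, the B cell and stroma sums overlapped between treatments and the gamma-delta T cell sum was 0 throughout. Some T cell genes did not overlap there, beside 12.5% of genes tested with every treated library above. Cd4 was at 160 and 295 CPM in anti-PD-L1 libraries, against 19.7 and 100 CPM in isotype libraries. Cd3e was at 399 and 537 CPM, against 270 and 285 CPM. Foxp3 and Pdcd1 also lay higher in the treated libraries, while Il2ra and the summed T cell identity genes overlapped. There the sum for plasmacytoid dendritic cells was 41.5 and 5.64 CPM in anti-PD-L1 libraries, against 50.7 and 70.9 CPM in isotype libraries, and that for neutrophils was 0.0739 and 17.5 CPM in anti-PD-L1 libraries, against 0 in isotype libraries. For mast cells and basophils the sum was 56.8 and 0 CPM in anti-PD-L1 PD-1- Tregs, against 0 in isotype ones. The 56.8 CPM, in replicate 1, was the highest of all 14 libraries and came from 1 of 8 markers. The part of these markers in the levels of the members was not tested. Gzma, Gzmk and Prf1 had counts in CD4 T cells of both treatments, in libraries that also held Cd8b1.

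**Figure D3:**
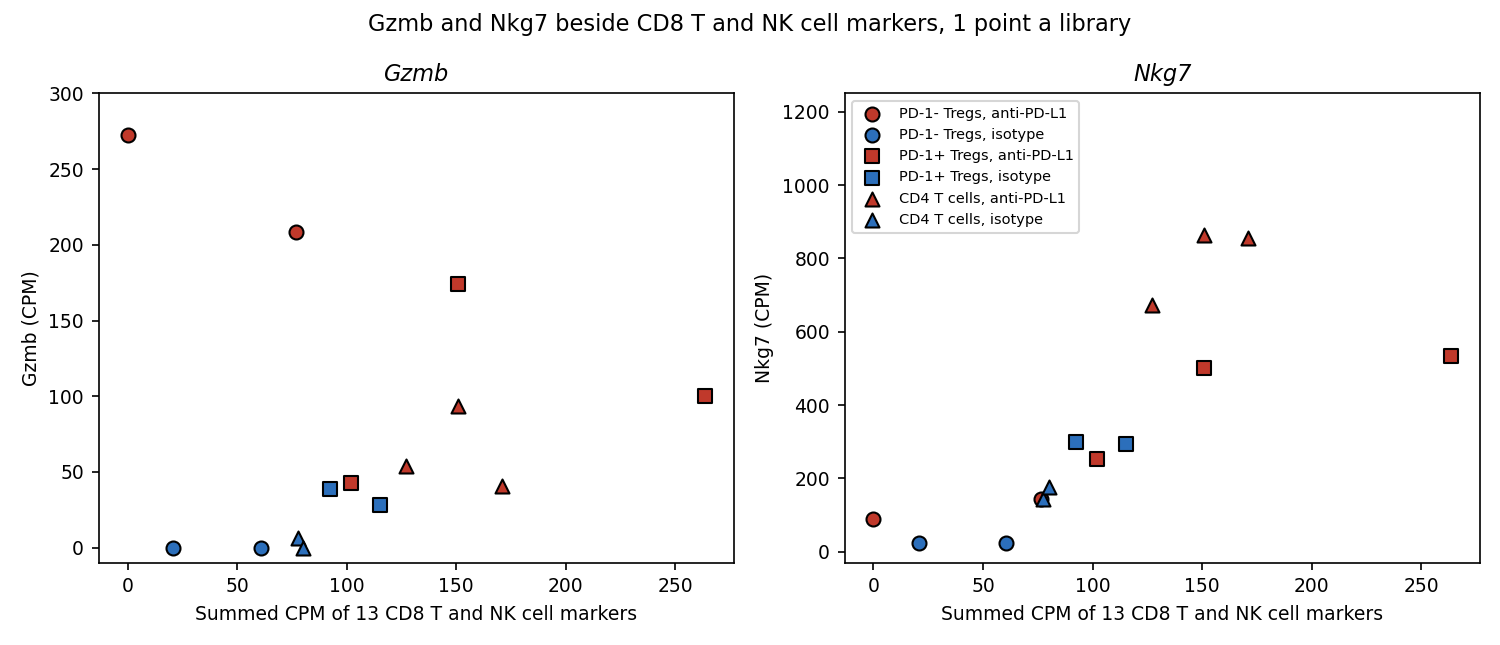
Gzmb (left) and Nkg7 (right) in CPM against the summed CPM of 13 CD8 T and NK cell markers, 1 point a library, by population (shape) and treatment (red, anti-PD-L1; blue, isotype). The highest Gzmb value, 272 CPM, lies at a marker sum of 0, in the library with the fewest genes with a count (8027). Both isotype libraries of PD-1- Tregs lie at 0 CPM of Gzmb with marker sums of 20.8 and 60.7 CPM.

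Markers of macrophages and monocytes moved with the population comparisons. Their 10 genes summed to 285 to 772 CPM in PD-1- Tregs, to 3216 to 5689 CPM in PD-1+ Tregs and to 1836 to 5109 CPM in CD4 T cells. All 10 were positive in PD-1+ against PD-1- Tregs and 9 of them passed the threshold, where 4.28% of all genes did. All 10 were negative in PD-1- Tregs against CD4 T cells and 7 of them passed, where 3.6% of all genes did. Their part in the population differences of Nkg7 and of the genes below was not tested. Within PD-1- Tregs the sums were 375 and 697 CPM in anti-PD-L1 libraries, against 772 and 285 CPM in isotype libraries, and no marker of the list passed.

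Genes around the cytotoxic programme were taken from lists of their functions, 71 tested genes with Cd8a and Cd8b1 among them. With treatment 6 of them passed in PD-1- Tregs, where 2.66% of all genes did, 6 in the average over populations, where 1.23% did, and 0 in either of the other populations. By edgeR 9 of the 71 had an unadjusted p under 0.05 for the PD-1+ Tregs and 8 for the CD4 T cells, where DESeq2 called 5 and 3 and limma-voom 1 and 0. The shares of all genes under these rules are those given above for the members. In the list of other Th1 and cytotoxic effector genes, 2 of 13 genes rose with anti-PD-L1 in PD-1- Tregs, again beside 2.66% of all genes. Ccl3, a chemokine, was at 11.9 and 66.8 CPM in anti-PD-L1 libraries, against 0 counts in isotype libraries (adjusted p = 0.0175). Cxcr3, the chemokine receptor of Th1 cells, was at 323 and 223 CPM in anti-PD-L1 libraries, against 0.0931 and 6.61 CPM in isotype libraries (log2 fold change 6.34 ± 1.09, adjusted p = 0.00999). Both were far above their isotype values. Ccl5, another chemokine, passed in the average over populations and in none of the 3 treatment comparisons (log2 fold change 1.81 ± 0.27, adjusted p = 0.00896), and it was at 130 and 50.5 CPM in anti-PD-L1 PD-1- Tregs, against 20.2 and 28.1 CPM in isotype PD-1- Tregs. Ifng, which encodes interferon gamma, had 28.8 and 0 CPM in anti-PD-L1 PD-1- Tregs, against 0 counts in isotype ones. The median log2 fold change of the 13 genes was positive in each population, at 5.36 in PD-1- Tregs, 1.14 in the PD-1+ ones and 1.76 in CD4 T cells, against medians over all genes of 0, 0 and -0.01. The median in PD-1- Tregs includes genes with a group at 0, whose fitted changes are not bounds.

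Among 15 regulators of the programme tested, 2 rose and 1 fell in PD-1- Tregs, beside the same 2.66% of all genes. Id2, an inhibitor of E proteins that supports effector differentiation, was at 254 and 415 CPM in anti-PD-L1 libraries, against 96.7 and 143 CPM in isotype libraries (log2 fold change 1.48 ± 0.27, adjusted p = 0.0135). Stat4, which signals downstream of interleukin-12, was at 313 and 39.6 CPM in anti-PD-L1 libraries, against 2.33 and 0 CPM in isotype libraries (adjusted p = 0.0251). Bach2, a repressor of effector differentiation, had 0 counts in both anti-PD-L1 libraries, against 32.5 and 166 CPM in isotype libraries (adjusted p = 0.00794). The treated and isotype libraries did not overlap for any of these 3. Of genes tested, 12.5% had every treated library above in PD-1- Tregs and 14% had every treated library below. Tbx21, the gene of T-bet, had at most 0.592 CPM in any PD-1- Treg library of either treatment. It was at 15.7, 42.2 and 52.9 CPM in anti-PD-L1 PD-1+ Tregs, against 0.255 and 23.0 CPM in isotype PD-1+ Tregs, and Tbx21 was lower in PD-1- Tregs than in CD4 T cells (adjusted p = 0.0231) and higher in PD-1+ than in PD-1- Tregs (adjusted p = 0.0323). Tcf7, a factor of resting and memory T cells, was lower in PD-1+ Tregs than in PD-1- Tregs (log2 fold change -1.42 ± 0.25, adjusted p = 0.00992) and than in CD4 T cells (-2.21 ± 0.25, adjusted p = 0.00272).

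The granules themselves depend on genes for their content, transport and fusion. Of 12 genes of granule maturation and 11 of docking and exocytosis tested, 0 passed by edgeR in any of the 3 treatment comparisons or in their average. At an unadjusted p under 0.05 there were 4 of these 23 for PD-1- Tregs, 2 for PD-1+ Tregs, 2 for CD4 T cells and 5 for the average, and DESeq2 called 4, 2, 0 and 2 and limma-voom 1, 0, 0 and 0. Of all genes, 20.1% had such a p for PD-1- Tregs and 14.8% for the average, and DESeq2 called 23.6% and 16.2% and limma-voom 5.11% and 2.63%. Ctsc, whose product cathepsin C activates granzymes, was higher in PD-1+ than in PD-1- Tregs (log2 fold change 1.85 ± 0.24, adjusted p = 0.00179), and macrophages also express it. Igf2r, a mannose 6-phosphate receptor that can bind granzyme B, was lower in PD-1+ than in PD-1- Tregs (-1.17 ± 0.22, adjusted p = 0.0134) and higher in PD-1- Tregs than in CD4 T cells (1.85 ± 0.23, adjusted p = 0.00157). Of 4 inhibitor genes tested, Serpina3g, a serpin of activated T cells, rose in the averaged treatment comparison by 1.19 ± 0.21 (adjusted p = 0.0150). It was higher in PD-1+ Tregs than in CD4 T cells, by 1.76 ± 0.24 (adjusted p = 0.00799). Serpinb9, which inhibits granzyme B in mice, was at 15.3 and 0 CPM in anti-PD-L1 PD-1- Tregs, against 38.2 and 95.9 CPM in isotype PD-1- Tregs, and did not pass. Of the 12 genes of death ligands, receptors and adaptors, Casp8, the caspase downstream of Fas, fell in PD-1- Tregs (log2 fold change -1.53 ± 0.33, adjusted p = 0.0311). Of 7 further granzyme genes, 2 had enough counts to be tested, and neither passed by edgeR, DESeq2 or limma-voom in a treatment comparison, with 0 at an unadjusted p under 0.05 in each population and 1 in the average. The 7 genes summed to 56.5 and 0 CPM in isotype PD-1- Tregs, against 0 and 1.68 CPM in anti-PD-L1 ones. The 56.5 CPM came from Gzmc. Across populations, 2 regulators (Id2 and Tbx21) were higher and 1 (Tcf7) was lower in PD-1+ than in PD-1- Tregs, where 4.28% of all genes passed. In the Th1 and cytotoxic list Ccl3, Ccl5 and Cxcr3 were higher. The same 3 genes of that list were lower in PD-1- Tregs than in CD4 T cells, where 3.6% of all genes passed. So were the regulators Id2 (log2 fold change -1.50, adjusted p = 0.00168), Bach2 (adjusted p = 0.0253) and Tbx21. The call of Bach2 describes the average of both treatments and includes the anti-PD-L1 PD-1- Tregs at 0 counts. Isotype PD-1- Tregs averaged 99.3 CPM of Bach2 and anti-PD-L1 CD4 T cells averaged 22.6 CPM. These values differ in treatment as well as in population, so they do not compare the populations. Tnfrsf1a, which encodes a receptor of tumour necrosis factor, was at 2.04 to 48.4 CPM in PD-1+ Tregs and 0 to 0.252 CPM in PD-1- Tregs (adjusted p = 0.0269), and it was lower in PD-1- Tregs than in CD4 T cells, which had 25.1 to 42.8 CPM (adjusted p = 0.0210). Ltb, which encodes lymphotoxin beta, was lower in PD-1+ than in PD-1- Tregs (log2 fold change -0.63, adjusted p = 0.0243) and higher in PD-1- Tregs than in CD4 T cells (0.67, adjusted p = 0.0215). Without the libraries with Y-linked counts, 4 of 6 calls of these lists held for treatment in PD-1- Tregs, where Id2 (adjusted p = 0.0733) and Casp8 (0.118) were lost. For the average over populations 4 of 6 held, without Ccl3 (0.0998) and Serpina3g (0.0507). In the population comparisons 6 of 10 calls held for PD-1+ against PD-1- Tregs, 2 of 2 for PD-1+ Tregs against CD4 T cells and 5 of 11 for PD-1- Tregs against CD4 T cells. With all libraries, these 10, 2 and 11 calls among 71 list genes stood beside 4.28%, 0.35% and 3.6% of all genes. All these genes kept their sign.

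**Figure D4:**
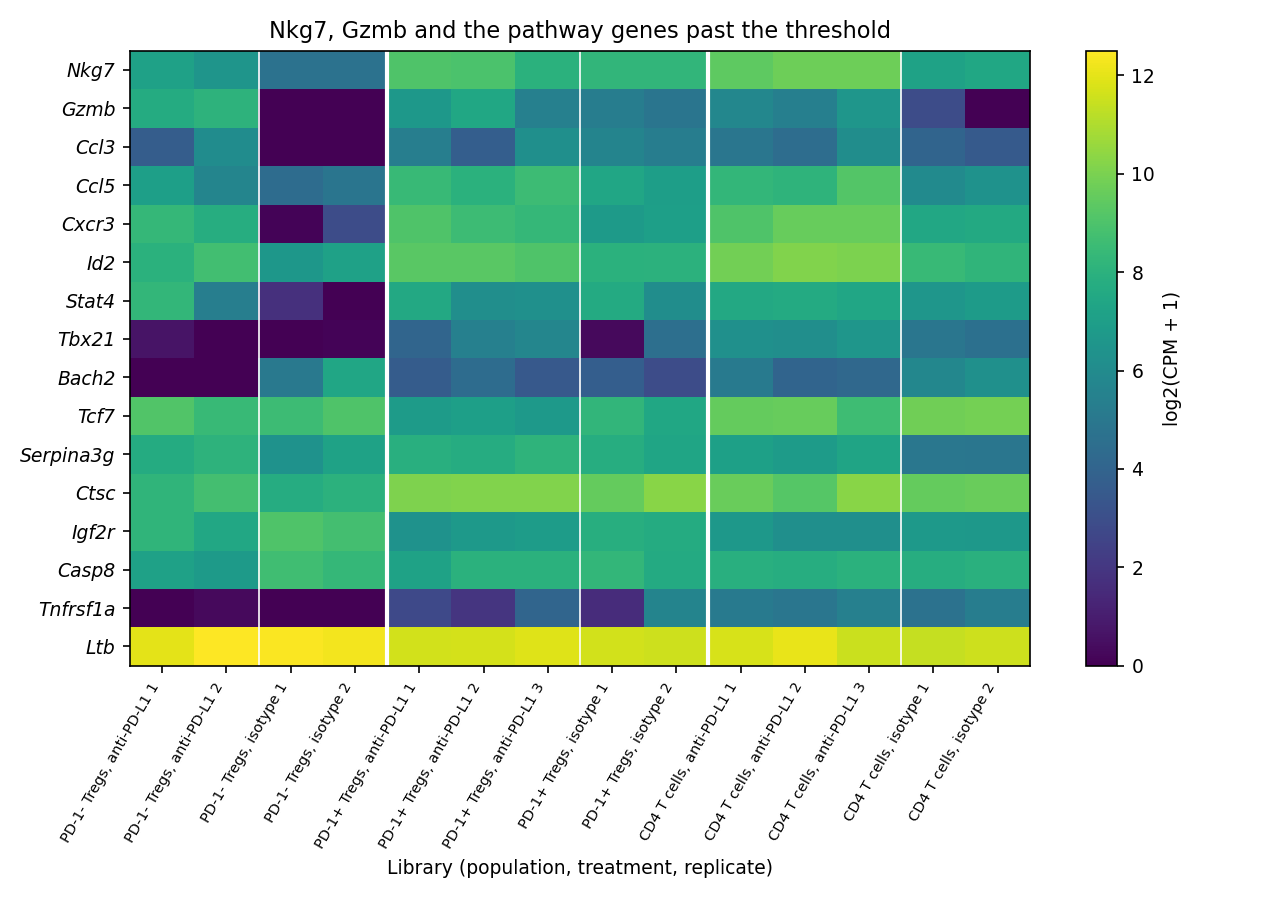
Level of Nkg7, Gzmb and the genes of the pathway lists past the threshold in a treatment or population comparison, as log2(CPM + 1), in 14 libraries ordered by population with anti-PD-L1 left of isotype. In PD-1- Tregs Gzmb, Ccl3 and Cxcr3 are brighter in both anti-PD-L1 libraries than in both isotype libraries, while Tbx21 is dark in all 4.

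The genes whose levels were most like those of a member were named by Pearson's r over the 14 libraries, as a description, since libraries share population, treatment and depth. For Nkg7 these were Ccl5 (r = 0.93), Pdcd1 (0.90), Plscr1 (0.90), Sox15 (0.89) and Id2 (0.89). Pdcd1 was used as a protein in the sort. For Gzmb they were Trip10 (0.92), Acot7 (0.91), Ptpn22 (0.90), Map6 (0.89) and Cmtm7 (0.88), and none of these is a gene of the lists. For Gzmk, with counts in 5 libraries, the first was Plekhf1 (0.99), at 0 in all 9 Treg libraries. For Prf1 the first was Pmp22 (0.99), for Fasl Cyb5d2 (0.90) and for Ctsw Dock2 (0.91). Among the members themselves r was 0.86 between Gzma and Gzmk and 0.82 between Gzma and Prf1. Between Gzmb and Prf1 it was -0.09, and between Gzmb and Nkg7 0.66. By ranks (Spearman's rho) these values were -0.33 and 0.34, so they depended on the measure. With Cd8a and Cd8b1 Pearson's r of Gzmb was 0.21 and 0.10.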

How the data were processed

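Bulk RNA-seq libraries (Smart-seq2, without molecular identifiers) of 14 samples in 6 groups were analysed. The authors deposited a table of raw counts per gene and a table of RPKM values, per the file headers. As tools, the submitters' processing notes list HOMER 3.12, HISAT2 2.0.4, DESeq2 and SAMtools, with the build mm10; not given in the sources used here are the annotation, the use of strand and the treatment of reads with several matches. The deposited RPKM of the members followed the deposited counts library by library.

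Counts were filtered with filterByExpr (minimum count 10), scaled by TMM and fitted as 6 group means over all 14 libraries with edgeR 4.0.16 (robust quasi-likelihood, R 4.3.3). P-values were adjusted by Benjamini-Hochberg over 13434 genes, with a threshold of 0.05, and a standard error is the log2 fold change over the root of its F. Population contrasts weighted both treatments equally. Levels were compared between genes on RPKM alone. Libraries held 10638848 to 15030804 counts; a fold against a group at 0 used 3 counts per library, which covers counting error only. Alternatives used DESeq2 1.42.0, limma 3.58.1 (voom, quality weights, log2 of RPKM plus 0.1 or 1), DESeq2 size factors, no filter, the compared libraries alone, 1 treatment alone, a replicate block, and libraries left out.

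The members and lists were chosen with earlier results of these data known. Genes most like a member were the 5 with the highest Pearson's r of log2 CPM over all libraries, for members with a mean of at least 5 CPM; this rule excludes Gzma. Genes named from a list were those past the threshold in a treatment or population comparison and at most the 4 with the highest mean CPM of the rest; Ifng was named after its values were seen. The 3 libraries with Y-linked counts were those with the bracketed number 3, so this number may link libraries of different populations. Pairing was also sought in deviations from the group means. Of 31 pairs with the same title number and 28 with the same bracketed number, 0 had deviations correlated over 0.1 (highest 0.0740). In a group of 2 libraries the deviations mirror each other, so this check could not exclude pairing. The main fit treated all libraries as independent.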

Additional observations from a re-analysis of the deposited data

Results flagged for a closer look

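For Gzmb, the response to anti-PD-L1 differed between PD-1- Tregs and PD-1+ Tregs in the test of the difference itself (adjusted p = 0.0444, edgeR over 13434 genes). In PD-1- Tregs both treated libraries (209 and 272 CPM) stood against 0 counts in both isotype libraries, while in PD-1+ Tregs treated libraries of 100.5, 174 and 42.5 CPM stood against isotype libraries of 38.6 and 28.3 CPM. The treated library with 272 CPM and that with 42.5 CPM both held Y-linked counts, and without these and the corresponding CD4 T cell library the adjusted p was 0.104. Left out one at a time, the call was lost without the treated PD-1+ Treg library (0.0768) or the treated CD4 T cell library (0.0819) with Y-linked counts and held without the PD-1- Treg library of 272 CPM. Over all 14 libraries left out singly it held for 4. It was also lost with only the libraries compared (0.0647), with library quality weights (0.636) and with the title or bracketed number as a replicate block (0.148 and 0.115), and DESeq2 and limma-voom gave 4.01e-06 and 0.00663. With groups of 2 or 3 libraries, no test for a single library far from its group was made.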

How the results depend on the processing

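Each count of members past the threshold was refitted under every alternative, and leaving out libraries with Cd8a counts was chosen after seeing the data. For treatment in PD-1- Tregs the count was 2, and became 3 by DESeq2, 1 by limma-voom, 0 with library quality weights, 0 with only the libraries compared, 1 with either number as a replicate block, and 2 to 3 when each library was left out. For treatment in PD-1+ Tregs it was 0, and became 1 by DESeq2, by limma-voom and on RPKM with either pseudocount. For treatment in CD4 T cells it was 0, and became 1 without a filter, by DESeq2, on log2(RPKM + 0.1), with only the libraries compared and without those with Y-linked counts, 3 with quality weights, and 0 to 1 with each library left out. For the average it was 2, and became 1 by limma-voom, 0 with quality weights, 1 with either replicate block and 1 to 2 with each library left out. For PD-1+ minus PD-1- Tregs it was 1, and became 3 without a filter, 4 by DESeq2, 2 by limma-voom, 0 with quality weights, 2 on either RPKM scale, 2 with only the libraries compared, 0 within either treatment, 2 without libraries with Cd8a counts and 1 to 2 with each library left out. For PD-1+ Tregs minus CD4 T cells it was 0, and became 2 by DESeq2, 3 by limma-voom, 4 with quality weights, 3 and 2 on RPKM plus 0.1 and 1, and 2 with only the libraries compared. For PD-1- Tregs minus CD4 T cells it was 4, and became 5 by DESeq2, by limma-voom, on either RPKM scale and with only the libraries compared, 3 with DESeq2 size factors, 1 with quality weights, without the libraries with Y-linked counts, with either replicate block and among anti-PD-L1 libraries, 0 among isotype libraries, 2 without libraries with Cd8a counts and 1 to 4 with each library left out. For the difference of effects between PD-1- and PD-1+ Tregs it was 1 (Gzmb), and 1 without the libraries with Y-linked counts (Nkg7), and became 3 by DESeq2, 0 with quality weights, 0 with only the libraries compared, 0 with either replicate block, and 0 to 2 with each library left out. For that between PD-1- Tregs and CD4 T cells it was 0, and became 2 by DESeq2, 1 with only the libraries compared and 0 to 1 with each library left out. For that between PD-1+ Tregs and CD4 T cells it was 0, and became 2 by DESeq2. The number of all genes called moved with the setting too. For treatment in PD-1- Tregs it was 358 in the main fit, 2755 by DESeq2 and 686 by limma-voom. With quality weights it was 0, as it was with only the libraries compared. For treatment in PD-1+ Tregs it was 2 in the main fit, 618 by DESeq2, 149 by limma-voom, and 54 and 58 on RPKM plus 0.1 and 1. For treatment in CD4 T cells it was 1 in the main fit, 3 without a filter, 54 by DESeq2 and 324 with quality weights. There it was also 21 on log2(RPKM + 0.1) and 6 with only the libraries compared. Most other member counts here stand without such numbers and are not read as results about the members. For PD-1- Tregs against either other population, the DESeq2 and limma-voom numbers over all genes are not given here. Whether the member counts followed the number of all genes called was not tested, nor were other causes.

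Members that did not pass changed sign as follows, in log2 fold change. Fasl in treated PD-1+ Tregs was at -2.41 by limma-voom, -3.11 with quality weights, -1.70 and -0.68 on RPKM plus 0.1 and 1, -0.40 without the libraries with Y-linked counts, -0.26 and -0.23 with the title and bracketed number as a replicate block, and -0.38 to 0.82 with each library left out. Ctsw with treatment was at -0.037 in PD-1- Tregs without the libraries with Y-linked counts (-0.28 to 1.12 with each library left out), and at -0.078 and -0.063 in PD-1+ Tregs on RPKM plus 0.1 and 1 (-0.16 to 0.75). Its difference of effects between PD-1- and PD-1+ Tregs was at -0.68 without the libraries with Y-linked counts, -0.037 with the title number as a replicate block, -0.054 without libraries with Cd8a counts and -0.50 to 0.90 with each library left out. For PD-1- Tregs minus CD4 T cells, Ctsw was at -0.022 by limma-voom, -0.048 with quality weights, -0.0501 and -0.0499 on RPKM plus 0.1 and 1, -0.066 without the libraries with Y-linked counts, -0.10 with the title number as a replicate block, -0.48 among anti-PD-L1 libraries and -0.38 to 0.32 with each library left out. Gzmb there was at 0.45 on RPKM plus 1, 1.92 among anti-PD-L1 libraries and -3.71 to 0.96 with each library left out, and Gzmb in PD-1+ minus PD-1- Tregs was at -1.18 among anti-PD-L1 libraries. For PD-1+ Tregs minus CD4 T cells, Nkg7 was at 0.0376 with DESeq2 size factors, 0.0377 by DESeq2, 0.0100 by limma-voom, 0.065 with quality weights, 0.14 without the libraries with Y-linked counts, 0.88 among isotype libraries, 0.25 without libraries with Cd8a counts and -0.095 to 0.13 with each library left out. Its difference of effects between PD-1- Tregs and CD4 T cells was at 0.063 and 0.028 on RPKM plus 0.1 and 1, 0.25 without the libraries with Y-linked counts and -0.45 to 0.19 with each library left out.

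With 2 or 3 libraries a group, calls rest on a spread pooled over all groups; a lone library left in a group is assumed to vary like the rest. The common coefficient of biological variation was 1.22.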

Other observations

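Among genes of the lists that passed in no treatment or population comparison, some of the highest expressed also belong to killing and its control. Srgn, the proteoglycan core of the granules, was at 397 and 583 CPM in anti-PD-L1 PD-1- Tregs, against 449 and 567 CPM in isotype PD-1- Tregs, so Gzmb was 0 in libraries where Srgn was not. Coro1a, an actin-binding protein of lymphocytes, was at 1739 and 1519 CPM in anti-PD-L1 PD-1- Tregs, against 708 and 1072 CPM in isotype PD-1- Tregs (adjusted p = 0.155, edgeR). Cflar, an inhibitor of caspase-8 activation, was at 72.0 and 77.9 CPM in anti-PD-L1 PD-1- Tregs, against 14.1 and 14.2 CPM in isotype PD-1- Tregs (adjusted p = 0.0720). The treated and isotype libraries of Coro1a and Cflar did not overlap, and 12.5% of genes tested had every treated library above in PD-1- Tregs.

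Cxcr6, a chemokine receptor of effector T cells, was at 826.5, 409.6 and 423 CPM in anti-PD-L1 PD-1+ Tregs, against 123 and 153 CPM in isotype PD-1+ Tregs. Its level among CD4 T cells was 999.7, 1134 and 969.9 CPM in anti-PD-L1 libraries, against 203 and 143 CPM in isotype libraries. Neither comparison passed, with an adjusted p of 0.875 among the PD-1+ Tregs and 1.0 for CD4 T cells, although the libraries did not overlap. In PD-1- Tregs Cxcr6 was at 114 and 0.0841 CPM in anti-PD-L1 libraries, against 68.8 and 3.62 CPM in isotype libraries, an overlap.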
